A study of Acorus calamus with 8 samples.

Results

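Receptor kinases of the leucine-rich repeat (LRR), wall-associated and related types were followed through leaf and rhizome of sweet flag (Acorus calamus), a monocot that spreads by a creeping rhizome. Members were chosen by the SwissProt description of each assembled feature. A feature was taken where that text named an LRR receptor, a wall-associated kinase (WAK), FERONIA, a proline-rich (PERK), cysteine-rich (CRK) or lectin-domain (LecRK) receptor kinase, or a somatic embryogenesis receptor kinase (SERK). These phrases matched 248 of the 24636 features, after 3 brassinosteroid receptor features had been left out. The members comprise 145 LRR, 46 PERK, 18 CRK, 13 WAK, 10 LecRK, 9 SERK and 7 FERONIA features. The explants were grown on MS medium with 2 auxins, 2,4-D at 2 mg/l and NAA at 0.5 mg/l, so every library shares this treatment. RNA came from leaf or from rhizome, from explants whose leaves had been shortened (cut) or left whole (uncut), at 4 days or at a month. Each of the 8 combinations is 1 library, with no replicates. The number of explants behind each library, their age and their clone are not given in the sources used here.

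Receptor kinases sit in the plasma membrane, bind a peptide, a wall fragment or a microbial molecule outside the cell, and phosphorylate partners inside it. LRR receptors include growth receptors such as ERECTA and BAM1 and immune receptors such as FLS2, which binds bacterial flagellin in Arabidopsis. SERK proteins, BAK1 among them, are shared co-receptors of many LRR receptors. FERONIA binds RALF peptides and senses the state of the cell wall, and WAK proteins bind pectin.

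The label was checked against another annotation of the same features, the Nr match or a kinase domain entry. This, called the second annotation below, named a kinase or a receptor for 205 of the 248 features, 139 of 145 in the LRR group and every WAK, CRK, LecRK, SERK and FERONIA feature. The exception was the PERK group, in which 37 of 46 features had no such support and 5 matched at an E-value of 1e-20 or below. Many of these are short proline-rich matches that Nr calls uncharacterized. They are written as PERK-named below, and counts are given with and without features that lack the second annotation. A SwissProt name is the best match in another species, mostly Arabidopsis or rice, and does not establish the same function in sweet flag. Features run from 200 to 3357 bases with a median of 641.5 (values per feature, not whole genes). They fall into 222 assembly clusters, and 45 members share a cluster, so contigs of 1 cluster share reads.

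Depth limits what can be read. Ribosomal RNA features held from 74.976% to 97.87% of the counts of a library. Members held between 1851 and 8744 counts in 7 libraries and 237 in uncut rhizome at 4 days, where 4 members reached 10 counts. That library had 122102 nuclear counts, those of features neither ribosomal nor organellar, against up to 1695043 in uncut leaf at a month. Leaf identity held in the data: chlorophyll-binding and Rubisco features took 1.89% to 6.94% of nuclear counts in leaf and 0.06391% to 0.3054% in rhizome. Rhizome markers, chosen by storage organ names, were less clear. They took 0.06838% to 0.09079% in leaf and 0.09828% to 0.2656% in rhizome. Of 10 tested in edgeR, 2 were called higher in rhizome and 1 lower, a granule-bound starch synthase feature. Of all features tested 2.07% were called higher and 6.93% lower. Both cut libraries at 4 days stood apart in another way. Retrotransposon features took 0.602% of nuclear counts in cut leaf and 0.5732% in cut rhizome at 4 days, against 0.0102% to 0.2177% in the other 6 libraries. Features over 2000 bases were also raised there, by a median of 0.80 and 0.67 on the log2 scale over their own mean. In tissue libraries such as these, fewer cells of a type and less RNA per cell cannot be told apart.

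In total, members took 0.3228% of nuclear counts in uncut leaf and 0.3191% in cut leaf at 4 days, then 0.5159% and 0.3184% at a month. In rhizome the shares were 0.1941% (uncut; 95% Clopper-Pearson interval 0.1702 to 0.2204, counting error only) and 0.3761% (cut) at 4 days, then 0.5651% and 0.3943%. The uncut libraries at a month were the highest in both tissues. Families differed in where they were high. The 33 features named for growth receptors took 0.06476% in cut leaf and 0.06124% in cut rhizome at 4 days, against 0.01198% to 0.03488% elsewhere. The 7 FERONIA features took 0.02813% to 0.03404% in the 4 libraries at a month and 0.004095% to 0.01679% at 4 days. The lowest value, in uncut rhizome at 4 days, rests on 5 counts. The 11 features named for immune receptors were highest in the 2 rhizome libraries at a month, at 0.04511% (uncut) and 0.03323% (cut), and in uncut leaf at a month, at 0.0295%. These shares came mostly from single features. A feature named FLS2 held 160 of 216 counts in uncut rhizome and 124 of 156 in cut rhizome at a month. The SOBIR1 feature held 471 of 500 in uncut leaf at a month.

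**Figure D1:**
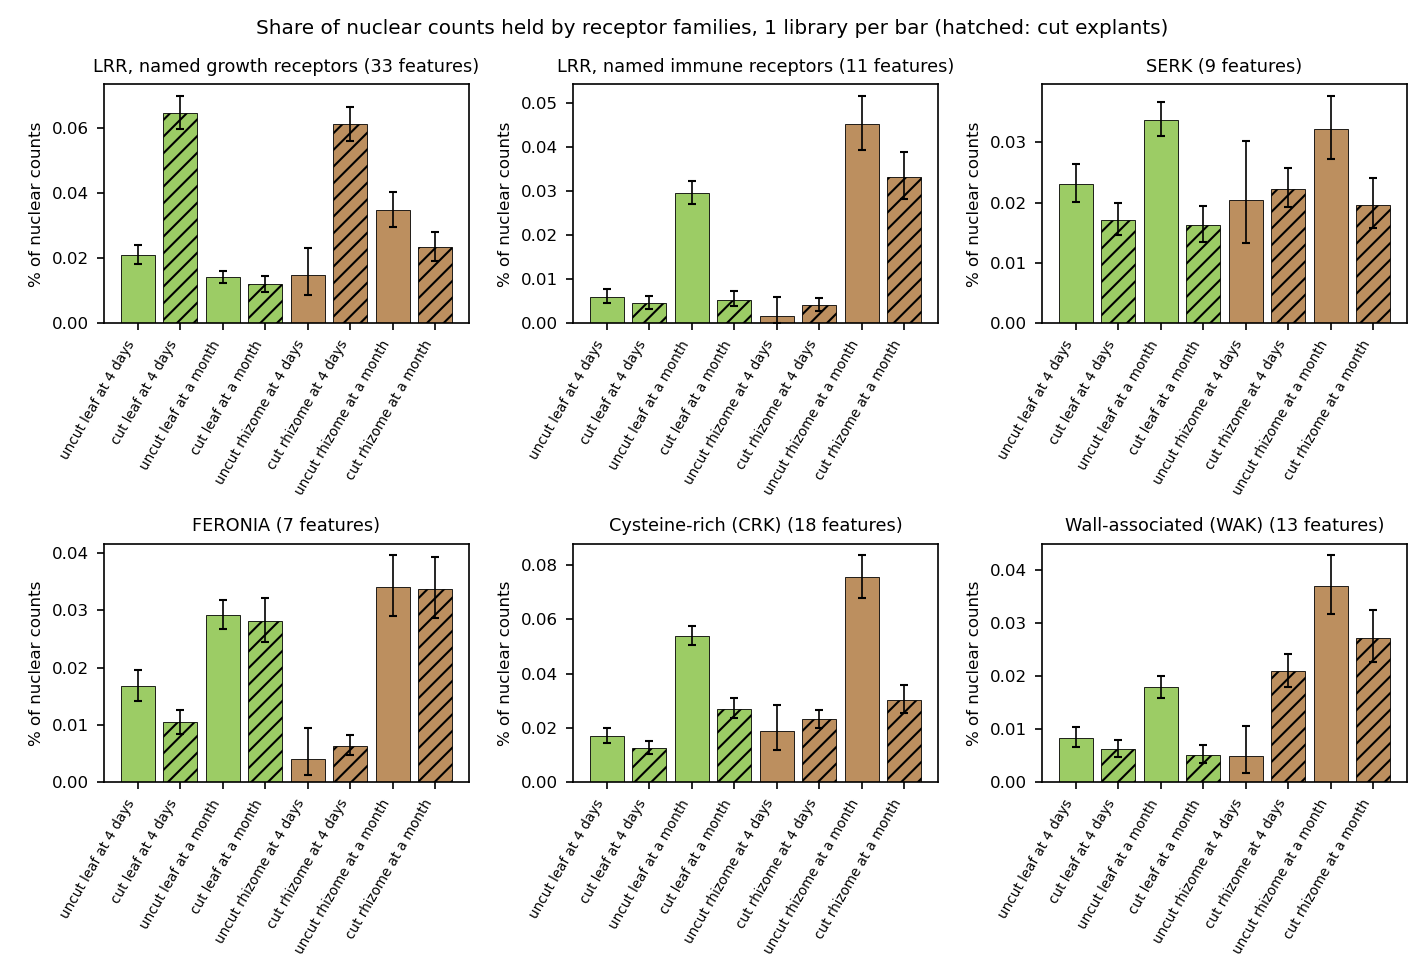
Percent of nuclear counts (vertical axes) held by 6 receptor groups in each of the 8 libraries, green for leaf, brown for rhizome, hatched for cut explants; error bars are exact 95% Clopper-Pearson intervals of counting error. Growth receptors peak in both cut libraries at 4 days (0.06476% and 0.06124%). FERONIA reads 0.02813% to 0.03404% at a month and 0.004095% to 0.01679% at 4 days.

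Tests were possible for 113 members that passed the count filter, 85 of them with the second annotation. The 135 others summed to at most 71 counts over the 8 libraries (median 5). Each factor was tested over its 4 matched pairs with edgeR's quasi-likelihood test and Benjamini-Hochberg adjustment over 11682 features. The p-values measure only the spread among these 8 libraries.

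Time gave the most calls on the counts: a month after cutting, 13 of 113 members were higher and 3 were lower than at 4 days, that is 11.5% and 2.655%. Among all features tested 7.81% were higher and 0.95% lower. The median log2 fold change was 0.49 for the members and 0.02 for all features tested. With RLE scaling, which moves the median of all features to -0.09 and that of the members to 0.37, 8 members were higher and 4 lower, beside 804 and 131 of the 11682 features. Without the uncut leaf pair 5 of 87 members were higher and 1 lower, beside 549 and 40 of 9488. With the second annotation required, 10 of 85 members were higher and 3 lower. Those that rose include the immune receptors FLS2 and SOBIR1, 2 contigs of FERONIA, 2 CRK features and a LecRK.

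Unigene6558, 1 of 7 features named FLS2 and the only such feature tested, had the largest time effect among features with the second annotation. Its CPM after TMM scaling, which sets the libraries to a common size (scaled CPM), was 0.0628 and 0.0682 in uncut and cut leaf at 4 days and 0.713 and 0.925 in uncut and cut leaf at a month. In rhizome it was 0 and 0.348 at 4 days and 18.7 and 19.8 at a month, again uncut then cut. Both rhizome libraries at a month thus stood far above the other 6. The log2 change over time was 5.26 ± 0.79 (SE, 4 pairs; edgeR adjusted p = 0.00155), higher in 4 of 4 pairs, and the call held when any 1 pair was left out. In all, 7 counts stood against 312.

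SOBIR1 (Unigene5046), in Arabidopsis the adaptor kinase of receptor-like proteins in immunity, was highest in uncut leaf at a month. Its scaled CPM was 2.38, 0.818, 17.7 and 2.77 in leaf (uncut then cut at 4 days, then the same at a month, an order kept below). In rhizome it was 0.844, 0.348, 5.04 and 3.83. The log2 change over time was 2.63 ± 0.54 (SE; edgeR adjusted p = 0.00899). Without the uncut leaf pair the change was 2.59 with an adjusted p of 0.0709, and without the cut rhizome pair 2.31 with 0.0573. The other 9 features with immune receptor names, the rest of those named FLS2 among them, were too low to be tested.

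All 4 tested FERONIA features had time estimates above 0, with a median log2 change of 2.12, and 2 contigs of 1 cluster passed. Of all 11682 features tested 5961 had time estimates above 0. CL1211.Contig2 stood at 0.565, 1.23, 3.72 and 7.40 scaled CPM in leaf and at 0, 0.904, 5.04 and 8.94 in rhizome. Within each tissue and time the cut library was higher than the uncut one. Its log2 change over time was 3.11 ± 0.60 (SE; edgeR adjusted p = 0.00595), which held without any 1 pair. CL1211.Contig1, which shares reads with it, rose by 2.44 ± 0.67 (edgeR adjusted p = 0.0414), a call kept only when the uncut leaf pair was the one left out (adjusted p 0.0525 to 0.251 without each of the others). Unigene7057, the FERONIA feature with the highest mean FPKM (4.485), had a change of 1.21 with an adjusted p of 0.182. Unigene4610 had 1.80 with 0.157. The other 3 FERONIA features were below the filter.

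The CRK group holds kinases with cysteine-rich outer domains often induced by pathogens and oxidative stress in Arabidopsis. It had time estimates above 0 in 9 of 10 tested features (median 1.47), beside 5961 of all 11682 features. CRK2 (CL1368.Contig2) stood at 1.25, 0.818, 5.14 and 2.36 scaled CPM in leaf and 0.844, 1.60, 12.9 and 4.63 in rhizome. It rose by 2.09 ± 0.55 (SE; edgeR adjusted p = 0.0325). CRK42 (Unigene6888), the CRK feature with the highest mean FPKM (3.298), rose by 1.78 ± 0.50 (edgeR adjusted p = 0.0440). Both were highest in uncut rhizome at a month, and both calls held only without the cut leaf pair. The lectin receptor kinase S.7 (Unigene10328) had 0.941, 0.273, 3.60 and 1.75 scaled CPM in leaf and 0, 0.765, 4.10 and 5.59 in rhizome. It rose by 2.74 ± 0.65 (SE; edgeR adjusted p = 0.0197), a call that was lost without the cut rhizome pair (adjusted p = 0.127).

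Within the LRR group the time estimates went both ways, 20 of 49 tested features above 0 and 29 below (median -0.28). Over all features tested 5961 were above 0 and 5721 below. The LRR feature with the highest mean FPKM (7.569) was CL1967.Contig1, named for the inactive kinase At5g48380, which is BIR1, a negative regulator of BAK1 signalling in Arabidopsis. It stood at 4.96, 5.45, 19.6 and 13.2 scaled CPM in leaf and at 2.53, 7.72, 34.7 and 36.2 in rhizome, and rose by 2.23 ± 0.52 (SE; edgeR adjusted p = 0.0184). That call held only without the cut leaf pair. CL1580.Contig1 (At2g16250) rose by 3.06 ± 0.71 (adjusted p = 0.0183 in edgeR), chiefly through leaf. It had 3.70 and 1.09 scaled CPM in leaf at 4 days, 33.6 and 25.3 in leaf at a month and at most 1.76 in rhizome, and the call was lost without either leaf pair (adjusted p = 0.103 for uncut and 0.0556 for cut). A FEI 1 feature (Unigene10714; FEI kinases affect cell wall synthesis in Arabidopsis roots) rose by 2.81 ± 0.80 (edgeR adjusted p = 0.0473) on at most 30 counts per library, and no leave-one-pair fit kept that call.

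Receptors that were lower at a month came from the LRR group and 1 related feature. XIAO (CL2411.Contig3), a regulator of organ size in rice, had 0.565, 1.36, 0 and 0.308 scaled CPM in leaf and 2.53, 4.10, 0.234 and 0.639 in rhizome. It fell by 3.05 on the log2 scale (SE 0.79; edgeR adjusted p = 0.0306), lower in 4 of 4 pairs. CL1031.Contig1 (At1g14390) fell by 3.68 (SE 0.91; edgeR adjusted p = 0.0248) and was at 0 counts in both rhizome libraries at a month. CL1987.Contig2, PERK13 in SwissProt but a STRUBBELIG receptor family protein in Nr, fell by 3.01 (SE 0.63; edgeR adjusted p = 0.00966). At 4 days it reached 6.68 scaled CPM in cut leaf and 8.69 in cut rhizome, and it stood at 0.300 to 2.96 in the other libraries. Leaving out the cut rhizome pair ended that call (adjusted p = 0.0733), and leaving out any of 3 pairs ended those of XIAO and CL1031.Contig1 (adjusted p 0.0529 to 0.122). BAM1 (Unigene6080), a CLE peptide receptor, stood just outside the threshold at -2.34 ± 0.68 (edgeR adjusted p = 0.0505), with 2.79 to 4.80 scaled CPM at 4 days and 0.188 to 2.11 at a month.

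Among the PERK-named features without the second annotation, 3 of 28 were higher at a month. Unigene4057 had 3 counts in the 4-day libraries together and 272 at a month, a pooled ratio of 83.9 (95% counting interval 28.4 to 409). Its level at a month was 4.52 to 7.62 scaled CPM in all 4 libraries, and the call (edgeR adjusted p = 0.00114) held without any 1 pair. Unigene8166 and Unigene4705 rose by 2.60 ± 0.72 and 2.17 ± 0.61 (edgeR adjusted p = 0.0430 and 0.0465), calls that held only without the uncut rhizome pair.

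**Figure D2:**
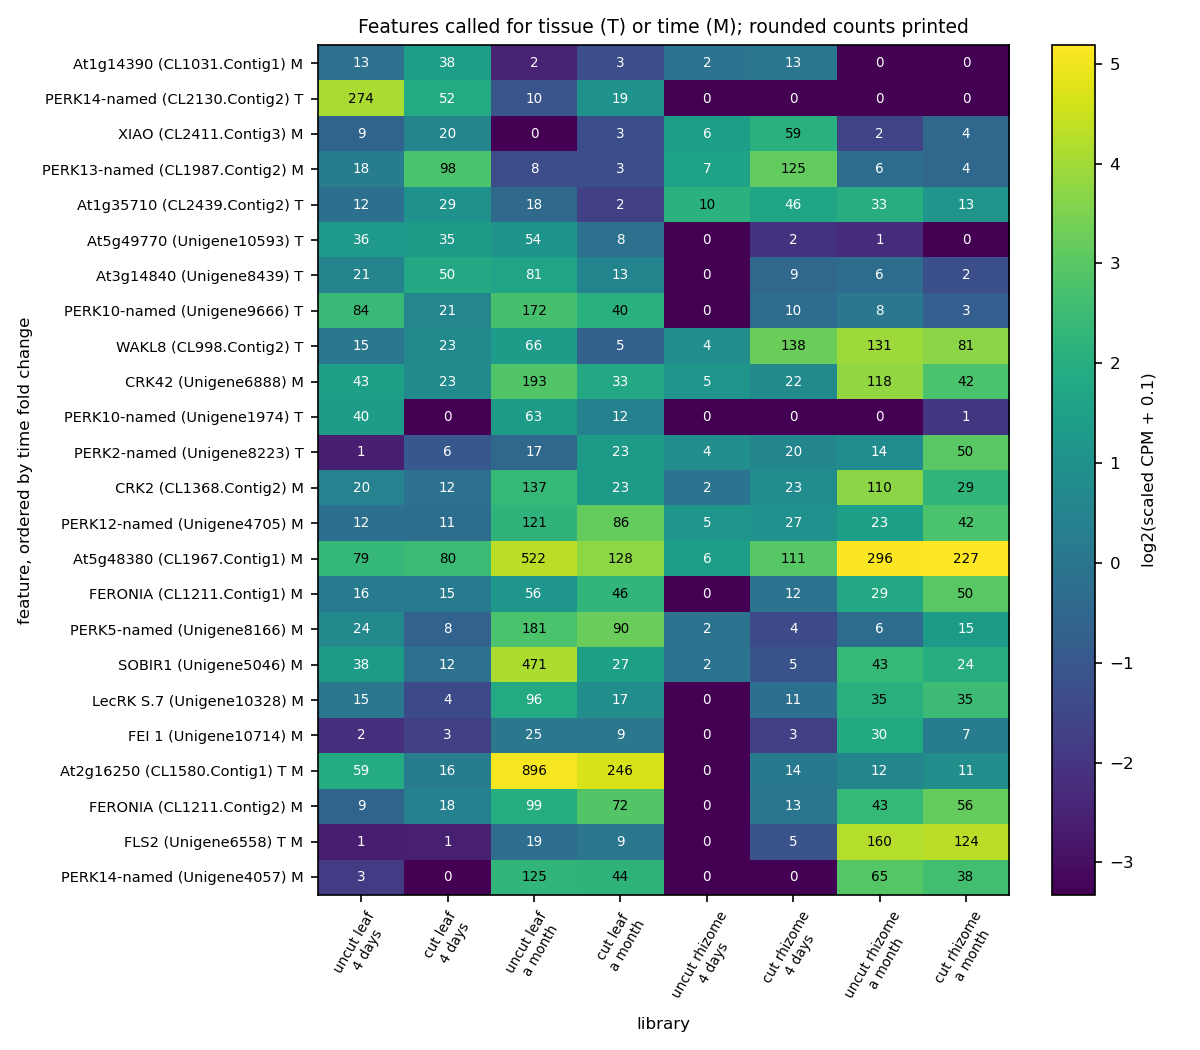
The 24 features called for tissue (T) or time (M), 1 row each, in the 8 libraries; colour is log2(scaled CPM + 0.1) and the printed numbers are rounded expected counts. FLS2 reads 160 and 124 counts in rhizome at a month and at most 19 elsewhere, and PERK14-named CL2130.Contig2 is at 0 in all 4 rhizome libraries.

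In rhizome, 4 of 113 members were higher than in leaf (3.54%) and 6 were lower (5.31%), against 2.07% and 6.93% of all features tested. The median log2 fold change of the members was 0.13, and that of all features was -0.14. On FPKM, which the authors scaled to all reads, ribosomal RNA included, the split was 1 higher and 20 lower with limma on log2(FPKM + 1). Over all 11682 features it was 79 higher and 2503 lower. There the median of all features moved to -0.73 and that of the members to -0.52.

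FLS2 was also called for tissue, 4.23 ± 0.69 higher in rhizome (log2, SE; edgeR adjusted p = 0.00138), with the levels given above: higher in 3 of 4 pairs and at 0 against 1 count in the uncut pair at 4 days. Without the uncut pair at a month it did not pass the count filter. WAKL8 (CL998.Contig2), a wall-associated kinase-like protein and the WAK feature with the highest mean FPKM (4.156), stood at 0.941, 1.57, 2.48 and 0.514 scaled CPM in leaf. In rhizome it stood at 1.69, 9.60, 15.3 and 12.9. It was higher in rhizome in 4 of 4 pairs, by 2.84 ± 0.55 (SE; edgeR adjusted p = 0.00487), and the call held without any 1 pair; the rhizome library that overlapped leaf was uncut rhizome at 4 days, with 4 counts. CL2439.Contig2 (At1g35710) was 2.21 ± 0.58 higher (edgeR adjusted p = 0.0266), with 2.08 to 4.22 scaled CPM in rhizome and 0.206 to 1.98 in leaf, and kept its call only without the cut pair at 4 days. PERK2-named Unigene8223 was 2.09 ± 0.58 higher (edgeR adjusted p = 0.0364), a call that no leave-one-pair fit kept.

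Of the LRR group, 3 features were lower in rhizome. Unigene10593 (At5g49770) had 36, 35, 54 and 8 counts in leaf and 0, 2, 1 and 0 in rhizome, a pooled ratio of 20.9 in favour of leaf (95% counting interval 6.99 to 103). It was lower in rhizome in 4 of 4 pairs, fell by 4.25 on the log2 scale (SE 0.86; edgeR adjusted p = 0.00634) and kept its call without any 1 pair. CL1580.Contig1 fell by 3.10 (SE 0.75; edgeR adjusted p = 0.0222), a call that held only without the cut pair at 4 days. Unigene8439 (At3g14840) fell by 2.26 (SE 0.64; edgeR adjusted p = 0.0393), which no leave-one-pair fit kept. Of 31 tested leaf markers, 26 were also lower in rhizome. Over time 9 of the 31 were lower at a month and none higher, whereas CL1580.Contig1 was higher. The part of green tissue in the tissue difference was not tested.

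The PERK group gave 3 further features lower in rhizome. CL2130.Contig2, named PERK14 but uncharacterized in Nr, had 274, 52, 10 and 19 counts in leaf and 0 in all 4 rhizome libraries, at least 55.7-fold lower against a floor of 3 counts over the rhizome group (edgeR adjusted p = 0.000751). Without uncut leaf at 4 days, which holds most of its counts, the bound was 16.7-fold. It has the highest mean FPKM of the PERK group (9.169). Unigene1974, a PERK10 by both annotations, had 40, 0, 63 and 12 counts in leaf and 0, 0, 0 and 1 in rhizome (edgeR adjusted p = 0.0299), lost without either uncut pair (adjusted p = 0.136 at 4 days and 0.237 at a month). Unigene9666 fell by 2.47 (SE 0.62; edgeR adjusted p = 0.0222), a call that held only without the cut pair at 4 days.

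**Figure D3:**
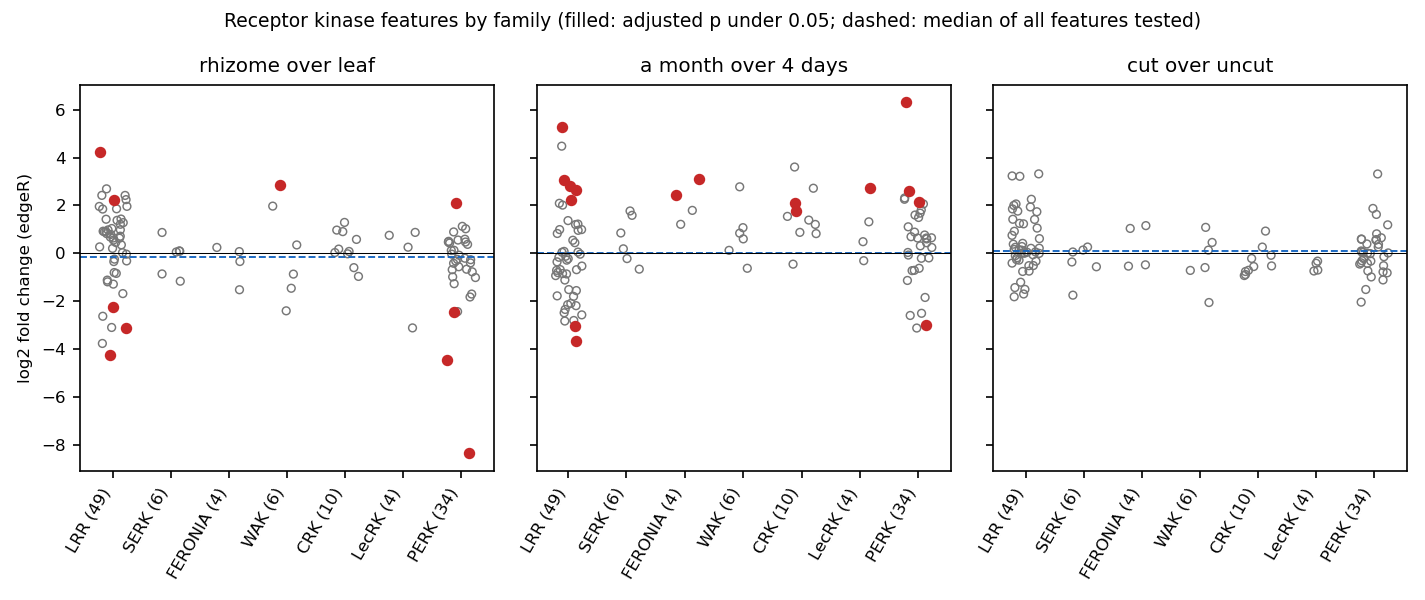
Log2 fold change of each tested member by family (edgeR; number tested in brackets) for rhizome over leaf, a month over 4 days and cut over uncut; filled points have an adjusted p under 0.05 and the dashed line is the median of all features tested. Calls fall on both sides for tissue, mostly above 0 for time, and there is none for cutting.

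Cutting gave no call among the 113 members in edgeR, where 12 had an unadjusted p under 0.05, 10 of them higher in cut explants. Of all 11682 features 967 had an unadjusted p under 0.05, 689 of them higher and 278 lower. After adjustment 0.00856% of all features tested were called (1 lower, none higher). DESeq2 called 2 members, both contigs of ERECTA, beside 54 features higher and 16 lower over all tested. The 3 members with the smallest p were both ERECTA contigs and a PERK9 with a kinase domain, and 4 of the 12 with an unadjusted p under 0.05 have growth receptor names. ERECTA binds epidermal patterning peptides and shapes stems and stomata in Arabidopsis. Of 3 features with that name, CL847.Contig1 and CL847.Contig2 passed the count filter.

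CL847.Contig1, at 3357 bases the longest member, stood at 1.004 scaled CPM in uncut leaf and 16.1 in cut leaf at 4 days, then at 0 and 0.720 at a month. In rhizome it stood at 0 (uncut) and 9.25 (cut) at 4 days and at 1.76 and 2.40 at a month. The cut library was the higher one in 4 of 4 pairs, with the widest gap at 4 days in both tissues. Over the 4 pairs the log2 change was 3.32 ± 0.86 (SE; edgeR adjusted p = 0.298; DESeq2 adjusted p = 0.0294). The edgeR adjusted p was 0.0256 and 0.00319 without the leaf and the rhizome pair at a month. It was 1.0 and 0.888 without those at 4 days, 0.539 with the additive model and 0.00342 with no low-count filter. CL847.Contig2 went the same way in 4 of 4 pairs, with 4 and 74 counts in uncut and cut leaf at 4 days and 0 and 14 in rhizome. Its change was 3.24 ± 0.83 (edgeR adjusted p = 0.274; DESeq2 0.0430), and no fit that left out 1 pair called it (edgeR adjusted p 0.1003 to 1.0).

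Other growth receptors had the same arrangement without passing. ERL1 (Unigene12882), a close relative of ERECTA, had 1 and 37 counts in uncut and cut leaf at 4 days and 0 and 14 in rhizome, and at most 3 counts in any library at a month (log2 change 3.22, edgeR adjusted p = 0.484). PXC3 (Unigene2071), named for a kinase linked to vascular development, stood at 0.565 and 3.75 scaled CPM in leaf and 0.422 and 5.42 in rhizome at 4 days, uncut then cut. Its levels at a month were 0.338 to 0.958 (log2 change 1.86, edgeR adjusted p = 0.464). IRK (Unigene3080) had 2 and 21 counts in leaf and 0 and 19 in rhizome at 4 days (edgeR adjusted p = 0.693). The PERK9 with a kinase domain, CL76.Contig2, read 0.439 and 3.34 scaled CPM in leaf and 0 and 3.34 in rhizome at 4 days (3.32 ± 0.85, edgeR adjusted p = 0.274). Of the 12 tested growth receptors 10 had cutting estimates above 0 (median 0.67), beside 6462 of the 11682 features tested (median 0.09). RPK2 and BAM1 were near 0, at 0.05 and 0.06, and another PXC3 feature (Unigene1030) was at -1.81.

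Long features as a class moved with the same libraries. The 12 tested growth receptors had a median length of 1466 bases. Their median log2 ratio of cut to uncut at 4 days was 1.31 in leaf and 1.71 in rhizome. Without CL847.Contig1 and CL847.Contig2 it was 0.58 and 1.71. Over all 1393 tested features longer than 2000 bases, the median log2 ratio of cut to uncut at 4 days was 0.92 in leaf and 1.55 in rhizome. Over all features tested it was 0.00 and 0.59. The 15 tested members longer than 2000 bases had medians of 1.99 and 1.88, with 14 of 15 above 0 in each tissue. Of the 1393 long features 1134 were above 0 in leaf and 1257 in rhizome. At a month the long features and the long members were both near 0 (medians -0.08 to 0.08). With an offset that removes the length trend of each library, the ERECTA estimates were 2.31 and 2.76 (edgeR adjusted p = 0.347 and 0.284). Apart from that offset, the part of feature length, of retrotransposon RNA and of the thin uncut rhizome library in these differences was not tested. Growth receptors were also read without CL847.Contig1 and CL847.Contig2. An ERECTA feature below the count filter stayed in this set. They then took 0.0330% of nuclear counts in cut leaf and 0.04406% in cut rhizome at 4 days. The uncut libraries had 0.01892% and 0.01474%. The CL847 contigs held 310 of the 632 growth receptor counts of cut leaf at 4 days. Without them that library (95% interval 0.02949% to 0.0368%) overlapped uncut rhizome at a month, at 0.03049% (0.02575% to 0.03586%).

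**Figure D4:**
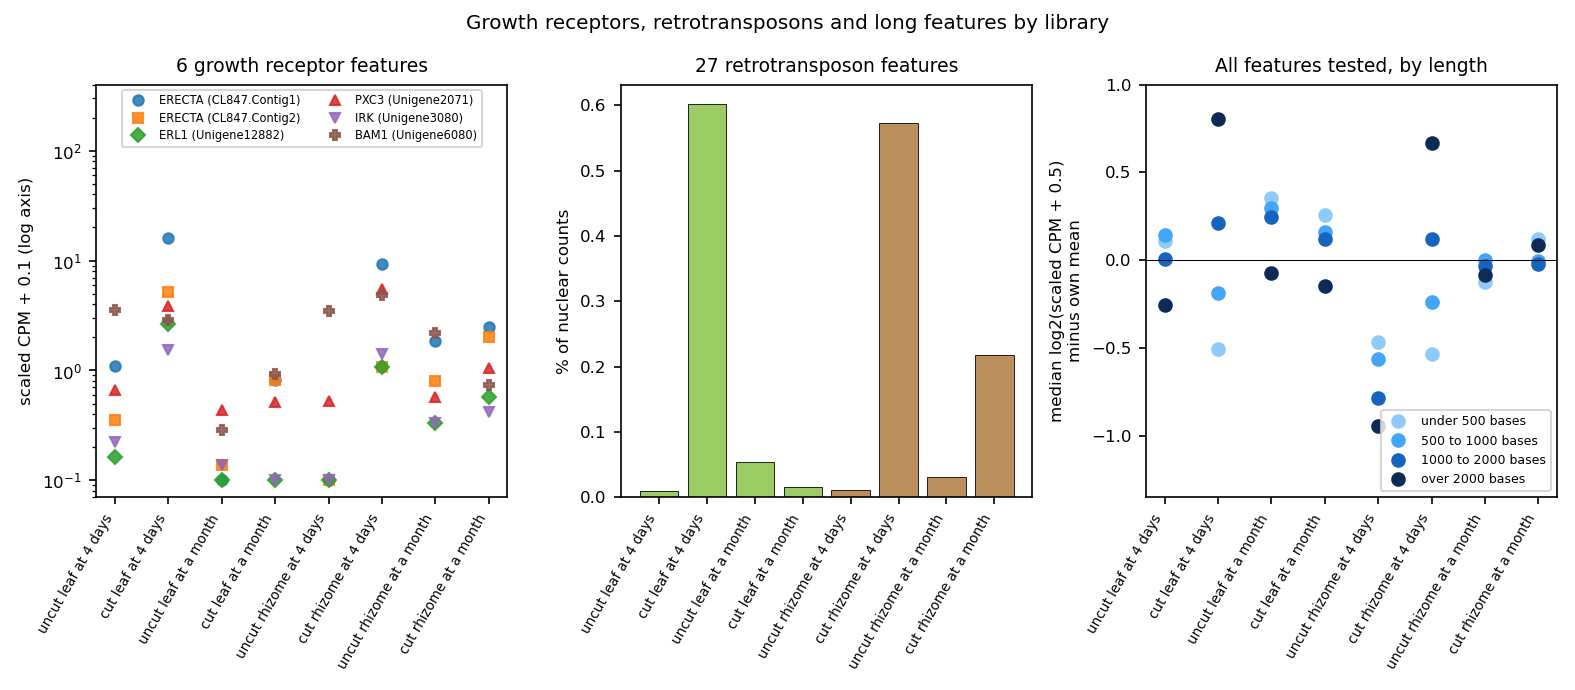
Left, scaled CPM + 0.1 (log axis) of 6 growth receptor features in the 8 libraries; middle, percent of nuclear counts held by 27 retrotransposon features; right, median log2(scaled CPM + 0.5) of all tested features over their own mean, in 4 length classes. ERECTA CL847.Contig1, retrotransposons and features over 2000 bases all peak in both cut libraries at 4 days. In rhizome, ERECTA CL847.Contig2 was highest in the cut library at a month.

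Whether an effect differed between levels of another factor was tested in fits with 2 residual degrees of freedom, and 4 members passed. The tissue effect of ERECTA (CL847.Contig1) was 4.55 ± 1.15 higher at a month than at 4 days (log2, SE; edgeR adjusted p = 0.0144), and that of Unigene1635 (At3g28040, an inactive LRR kinase) was 4.37 ± 1.21 higher (edgeR adjusted p = 0.0365). The background for this comparison was 0.608% higher and 0.394% lower. Both stood at 0 in uncut leaf at a month. Unigene1635 read 1.004 and 6.54 scaled CPM in leaf at 4 days, 0 and 0.411 at a month, and 1.27, 6.54, 2.81 and 2.71 in rhizome. The cutting effect of Unigene477 (At2g33170) was 4.80 lower at a month than at 4 days (SE 1.41; edgeR adjusted p = 0.0384), against a background of 1.02% higher and 0.942% lower. It stood at 0.188 and 2.66 scaled CPM in uncut and cut leaf at 4 days and 0.751 and 0.411 at a month, and at 0, 4.17, 2.93 and 1.92 in rhizome. For PERK14-named CL2130.Contig2 the cutting effect was 4.69 ± 1.40 higher at a month (edgeR adjusted p = 0.0443), which rests on leaf, since rhizome is at 0. None of the 4 calls held with no low-count filter or with the length offset. With DESeq2 none passed, but it gave no adjusted p for Unigene477 (unadjusted p = 0.00328). In that order of fits the estimates were 4.45, 3.95 and 5.38 for ERECTA and 4.27, 4.13 and 4.58 for Unigene1635. They were -4.91, -4.08 and -4.91 for Unigene477 and 4.56, 3.98 and 4.18 for CL2130.Contig2. For cutting by tissue no member and 0.0% of all features were called by edgeR. There 2 of 113 members had an unadjusted p under 0.05, beside 199 of 11682 features.

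Each pair was also read alone, without a test, by counting members that differed 4-fold or more and whose richer library held 50 counts or more. In cut against uncut leaf at 4 days, 8 of 26 members with 50 counts were higher and 3 lower, where 11.2% and 8.34% of all such features were. The 3 largest rises were the ERECTA contigs, at 20.1-fold and 16.02-fold, and Unigene401 (At3g03770), at 8.36-fold. The falls were all PERK-named, from 4.85-fold for CL2130.Contig2 and 5.24-fold for Unigene5142 to 9.82-fold for Unigene4323. In cut against uncut rhizome at 4 days, 6 of 16 were higher and none lower, with a background of 21.2% and 1.84%. They were led by ERECTA CL847.Contig1 (7.30-fold, against a floor of 3 counts), WAKL8 (5.68-fold) and Unigene401 (5.49-fold, floor of 3).

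At a month the cut leaf library had no member higher and 6 of 52 lower (background 1.23% and 2.51%). These were led by Unigene7089 (At1g53430, 8.40-fold against the floor), PERK9-named Unigene1294 (6.39-fold) and SOBIR1 (6.37-fold). In rhizome at a month 1 of 12 was higher and none lower (background 3.77% and 1.18%), PERK2-named Unigene8223 at 4.87-fold.

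Over time, uncut leaf had 12 of 56 members higher and 4 lower at a month (background 16.1% and 4.64%). The widest rise was CL872.Contig2 (At3g47570), which had 430 counts in uncut leaf and 34 in cut leaf at a month and at most 4 in the other libraries (85.7-fold against the floor). Unigene4057 (24.9-fold) and CRK10 (Unigene8676, 16.2-fold against the floor) followed, while CL2130.Contig2, BAM1 and Unigene5142 were 45.8-, 18.4- and 12.9-fold lower. In cut leaf 4 of 23 were higher and 7 lower (background 19.1% and 14.4%), led by CL1580.Contig1 (23.2-fold), Unigene8166 and Unigene4705 upward and by ERECTA CL847.Contig1 (22.4-fold), CL1987.Contig2 and Unigene1635 downward. In uncut rhizome 7 of 9 were higher and none lower (background 33.0% and 2.43%), led by FLS2 at 14.8-fold over the floor, CL1967.Contig1 and CRK2. In cut rhizome 5 of 20 were higher and 4 lower (background 11.3% and 9.02%). FLS2 (56.9-fold) and both FERONIA contigs (9.89- and 9.57-fold) led upward, and CL1987.Contig2 (13.6-fold), BAM1 (7.51-fold) and XIAO (6.43-fold) downward.

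Between tissues, 13 of 53 members were lower and 2 higher in uncut rhizome at a month (background 21.0% and 3.29%). CL872.Contig2 was 45.9-fold lower against the floor, CL1580.Contig1 23.9-fold and Unigene8166 9.67-fold, while FLS2 was 26.3-fold and WAKL8 6.20-fold higher. In cut rhizome at a month WAKL8 and FLS2 were 25.2- and 21.4-fold higher and CL1580.Contig1 14.4-fold lower, of 13 members (background 5.27% and 18.8%). At 4 days 3 of 15 were lower and none higher in uncut rhizome (background 22.5% and 1.92%), all PERK-named and at 0 counts there. In cut rhizome 1 of 21 was higher and 3 lower (background 2.41% and 9.71%): WAKL8, 6.12-fold higher, and CL2130.Contig2, Unigene8439 and ERECTA CL847.Contig2, 17.0- (floor), 5.45- and 5.18-fold lower.

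Among the 6 tested SERK co-receptor features no call was made for any factor in edgeR, a number too small to set apart from the background shares above, and 2 had an unadjusted p under 0.05 for time, 1 for cutting and none for tissue. SERK2 (CL2383.Contig2) lay between 3.38 and 6.64 scaled CPM in all 8 libraries, with fold estimates of 0.09 (tissue), 0.19 (time) and 0.06 (cutting) on the log2 scale and SEs of 0.41 to 0.48. BAK1 (CL1401.Contig5) lay between 1.65 and 4.80 in 7 libraries and at 0.422, 1 count, in uncut rhizome at 4 days. Other contigs of the BAK1 cluster, which share its reads, had time estimates of 1.77 (CL1401.Contig1) and 1.59 (CL1401.Contig4) with adjusted p of 0.139 and 0.201. SERK1 (Unigene6794) never exceeded 13 counts. CL2383.Contig1, a 474-base piece of SERK2, had the highest mean FPKM of the family (4.734) and a cutting estimate of -1.75 (edgeR adjusted p = 0.505). Among the remaining growth names, PXC1 (Unigene10847) had at most 24 counts, IMK2 (Unigene3571) at most 59 and a further FEI 1 (Unigene1412) at most 67, none called. The other 21 growth features and 3 SERK features were below the filter.

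Some genes that act with these receptors were also called higher at a month. Of 8 ligand features, all tested, 3 were higher at a month and none lower in edgeR: 2 contigs of phytosulfokine 3 (3.51 and 3.38 on the log2 scale) and a RALF, the ligand class of FERONIA. The RALF feature Unigene1284 had 8, 1, 66 and 30 counts in leaf and 1, 4, 19 and 31 in rhizome, a rise of 3.48 ± 0.74 (SE; edgeR adjusted p = 0.0107). Of 27 tested output features 8 were higher and none lower. They comprise 5 respiratory burst oxidases, which make reactive oxygen at the membrane (log2 changes 2.39 to 3.79), and 3 MAP kinase kinase kinases, among them 2 named MAPKKK17. Of 25 tested receptor-like cytoplasmic kinases, which relay signals from LRR receptors, 3 were higher and none lower, led by RIPK (Unigene10272) at 5.08 ± 0.86 (edgeR adjusted p = 0.00305). Other receptor kinases gave 4 higher and none lower of 46, and the ROP module none of 7 in edgeR, with no unadjusted p under 0.05. The background is the 7.81% given above, and these lists were not tested as sets. For tissue, 2 cytoplasmic kinases (PBS1 and PBL17) were higher in rhizome and 2 other receptor kinases (CLAVATA1 and Xa21) lower. Cutting gave no edgeR call in any of these lists, which held 8 unadjusted p under 0.05 in all.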

How the data were processed

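RNA was measured by sequencing in 8 libraries, 1 for each combination of tissue, cutting and time. Per the file headers, each deposited table gives an expected count, an FPKM value and a length for every assembled feature, with annotation text. Per the submitters' processing notes, the authors used Bowtie2 and RSEM (versions not given in the sources used here). According to the labels' protocols, total RNA went through oligo dT selection or ribosomal RNA depletion. The sources used here do not say which library had which.

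Expected counts were rounded, and a feature not listed in a library was taken as 0. Ribosomal RNA (35 features) and organelle (266) features were told from nuclear ones (24335) by annotation text. Each factor was tested in R 4.3.3 with edgeR 4.0.16 (filterByExpr, TMM scaling, robust quasi-likelihood F test) over 4 pairs with the pair as a block, leaving 3 residual degrees of freedom, with Benjamini-Hochberg adjustment over all 11682 features tested and a threshold of 0.05. SE is the log2 fold change over the square root of F. Differences of effects left 2 residual degrees of freedom. DESeq2 1.42.0 and limma 3.58.1 were alternatives. Ratios of pooled counts and shares carry exact 95% intervals, which cover counting error only, since PCR copies are not independent molecules. In single pairs the lower library was counted as at least 3. On simulated counts with 50 features at each fold, the tissue test recovered 16 at 4-fold and 43 at 8-fold, the time test 12 and 38, and the cutting test 12 and 40. The simulation gave every feature the same dispersion and no differences between pairs, so recovery in the real libraries may differ.

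Members and lists were chosen with earlier results of these data known. Named members are those past the threshold for a factor (up to 15 per direction) or for a difference of effects, the highest mean FPKM of each family, every tested member with a fixed growth or immune name or of the SERK or FERONIA family, and up to 3 per direction in each single pair. CL76.Contig2 and the pathway features called were named after their values were seen. No sequences are shown, since none was used here.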

Additional observations from a re-analysis of the deposited data

Results flagged for a closer look

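For 4 members an effect differed between levels of another factor in a direct test with edgeR. The tissue effect on ERECTA CL847.Contig1 was higher at a month than at 4 days by 4.55 (log2), and that on Unigene1635 by 4.37. The cutting effect on PERK14-named CL2130.Contig2 was higher at a month than at 4 days by 4.69, and that on Unigene477 differed by -4.80. ERECTA CL847.Contig1 and Unigene1635 were both highest in the cut libraries at 4 days, in which long features as a whole were raised. With the length offset the differences were 3.95 and 4.13, with edgeR adjusted p of 0.0578 and 0.0608, and the calls were lost. Under that offset the cutting estimate went from 3.32 to 2.31 for CL847.Contig1 and from 1.94 to 1.38 for Unigene1635.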

How the results depend on the processing

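The 10 members called for tissue became 6 with the additive model, 21 with limma on log2(FPKM + 1) and 18 on log2(FPKM + 0.1), and 3 to 8 when 1 pair was left out. Over all features, 242 higher and 809 lower became 157 and 679, 79 and 2503, and 62 and 2208. Without 1 pair they were 76 to 313 and 368 to 679. On log2(FPKM + 0.1) the members split into 0 higher and 18 lower, so the rhizome-higher calls of WAKL8 and FLS2 did not hold there. The 16 called for time became 8 with limma on log2(FPKM + 0.1) and 6 to 18 without 1 pair. There 912 higher and 111 lower over all features became 842 and 73, and 549 to 783 and 40 to 201. For cutting, the count of 0 became 2 with DESeq2, 1 with no low-count filter and 0 to 1 without 1 pair. Over all features DESeq2 called 54 higher and 16 lower, and the fit with no low-count filter 95 and 18. The 2 members called for tissue by time and the 2 for cutting by time fell to 0 with no low-count filter, with the length-trend offset and with DESeq2. For Unigene477 DESeq2 gave no adjusted p. In the single pairs the 92 calls became 161 with at least 20 counts and 172 with at least 2-fold. With all counts as the denominator, the members' share was 0.03253%, 0.02483%, 0.07566% and 0.02537% in leaf and 0.003447%, 0.03157%, 0.02432% and 0.01706% in rhizome (uncut then cut at 4 days, then at a month). With nuclear counts less Unigene19161, an undescribed feature, it was 0.4078%, 0.4659%, 0.594% and 0.4411% in leaf and 0.3363%, 0.551%, 0.7572% and 0.6826% in rhizome. All 10 tissue calls and all 16 time calls held with DESeq2, with no low-count filter, without ribosomal RNA and organelle features and with the contigs of a cluster summed, and none changed sign under any alternative that tested it. With RLE scaling 11 of the 16 time calls held, and the split for time was 8 higher and 4 lower. When each pair was left out in turn, 3 of the 10 tissue calls and 3 of the 16 time calls held in all 4 fits.

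Limits: no combination has a replicate, so the 4 pairs of a factor stand in for them, and without 1 pair the rest are assumed to vary alike. Uncut rhizome at 4 days, with 237 member counts, limits every pair it enters. The planned offset for each table's feature length was not run, because lengths are the same in every table; an offset for the length trend was added after seeing the data, as were the alternatives for differences of effects.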
